A study of Homo sapiens with 12 samples.

Results

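The RNA levels of 10 amino acid transporter genes were followed in 2 human acute myeloid leukaemia cell lines treated with the kinase inhibitor SGI-7079. The genes were chosen by name, with earlier results of these data known. They are carriers that bring in or exchange leucine, glutamine, arginine and small neutral amino acids, together with their shared subunit. All 10 were found among the 36041 genes of the deposited table. All 10 also passed the filter on low counts that left 21438 genes for testing, with 266 to 27734 counts per library. The 4 groups were MV411 with SGI-7079, MV411 with DMSO, MOLM13 with SGI-7079 and MOLM13 with DMSO, with 3 libraries each. SGI-7079 was given at 10 nM for 24 h. DMSO is the solvent control, and its exposure time is not given in the labels. Both lines carry an internal tandem duplication of FLT3, a receptor tyrosine kinase gene, and the series presents SGI-7079 as an inhibitor of that kinase. Replicates are labelled as separate samples, with no word on separate cultures, so each p-value rests only on the spread among the samples at hand, which may be technical.

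Amino acids cross membranes through solute carriers of several families. SLC7A5 and SLC7A6 are light chains that reach the cell surface only when bound to the heavy chain SLC3A2, also known as CD98, and they exchange one amino acid for another. SLC1A5, SLC1A4, SLC38A1 and SLC38A2 use sodium to move glutamine and small neutral amino acids, and glutamine inside the cell can then be traded for leucine by SLC7A5. Leucine and arginine in turn activate the growth kinase complex mTORC1 at the lysosome, where SLC36A1 sits. When amino acids run short, the transcription factor ATF4 raises transcription of several of these carriers through a C/EBP-ATF composite element.

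Total counts ran from 52352252 to 61862017 per library, so that counting error was small for every member. Replicates of each group differed by more than sampling noise, with a chi-square per degree of freedom of 8.77 to 12.7. The 10 markers listed as monocytic myeloid, with FLT3, PTPRC and MPO among them, were all at 1 CPM or more in each group. CPM are counts scaled to a common library size. Their summed level was 3376 to 3475 CPM in MV411 with SGI-7079 against 2826 to 2939 CPM in MV411 with DMSO, and 2183 to 2226 CPM in MOLM13 with SGI-7079 against 1539 to 1545 CPM in MOLM13 with DMSO. The markers did not move as one. CSF3R, for example, averaged 299 CPM in MV411 with SGI-7079 against 123 CPM with DMSO, and 351 CPM in MOLM13 with SGI-7079 against 126 CPM with DMSO, whereas LYZ averaged 1642 against 1752 CPM in MV411 and 408 against 455 CPM in MOLM13. SPI1 was close to its control mean in both lines (289.7 against 282 CPM in MV411, 213 against 206 CPM in MOLM13). FLT3, whose kinase the series presents as the target, averaged 494 against 385 CPM in MV411 and 625 against 327 CPM in MOLM13. MPO went the other way, at 4.2 against 9.63 CPM in MV411 and 14.1 against 37.6 CPM in MOLM13. The part of these shifts in the results on the transporters was not tested. Summed erythroid, T cell, B cell, epithelial and fibroblast markers stayed at or below 16.8 CPM in every library. The sums cover only listed markers with a row in the deposited table. Those were 2 of 5 erythroid, 3 of 5 T cell, 4 of 5 B cell, 3 of 5 epithelial and 4 of 5 fibroblast markers. The highest sum was that of the B cell markers in MOLM13 with DMSO, where PAX5 averaged 15.1 CPM.

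The promoters of the members are shown first because they carry short motifs of factors known to act on amino acid transporter genes. RefSeq start sites on GRCh38.p14 gave 18 windows for the 10 members, each reaching from 250 bases before the start to 50 after it, for 300 bases in all. Both strands were searched for TGATGNAA, the core of the C/EBP-ATF composite element, and for the E-box CACGTG, which MYC and the lysosomal factor TFEB can bind. TGATGNAA was in 5 of the 18 windows (27.8%) and in 3.62% of all 35116 windows. By gene, it was in 5 of the 10 members and in 4.46% of all 27305 genes with windows. The stretches that hold it are given 5′ to 3′ on the gene's strand, with the match in capitals.
SLC3A2, chr11:62881719-62881748, plus strand: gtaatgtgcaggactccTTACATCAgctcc
SLC7A1, chr13:29595663-29595692, minus strand: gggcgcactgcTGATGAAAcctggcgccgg
SLC1A4, chr2:64989381-64989410, plus strand: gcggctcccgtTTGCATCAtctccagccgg
SLC1A5, chr19:46784893-46784922, minus strand: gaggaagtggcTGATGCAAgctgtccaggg
SLC38A1, chr12:46266502-46266531, minus strand: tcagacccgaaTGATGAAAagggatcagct
In SLC3A2 and SLC1A4 the match is the reverse complement. Its first base was base 8 counted from the start in SLC7A1, where the start is the outer end of the annotated gene. In SLC1A5 it lay 97 bases before the start. The starts of these windows in SLC3A2, SLC1A4, SLC1A5 and SLC38A1 lie inside the annotated span of the gene. Which starts were used in these cells was not tested.

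CACGTG was in 4 of the 18 windows (22.2%) and in 7.26% of all windows. By gene, it was in 4 of the 10 members and in 8.77% of all genes with windows. It reads the same on both strands, and no match overlapped a TGATGNAA match. The stretches are again on the gene's strand with the motif in capitals. The starts of these windows in SLC1A5, SLC43A1 and SLC36A1 also lie inside the annotated span of the gene.
SLC1A5, chr19:46787326-46787355, minus strand: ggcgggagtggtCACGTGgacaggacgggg
SLC43A1, chr11:57515797-57515826, minus strand: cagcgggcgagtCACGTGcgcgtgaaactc
SLC36A1, chr5:151447548-151447577, plus strand: cgctcaagggagCACGTGacctcggcctct
SLC36A1, chr5:151447583-151447612, plus strand: gggcggtgggatCACGTGatgaggtccgga
The 250 bases before the start of SLC7A5 are printed whole because this gene fell the furthest of the members in both lines. They run over chr16:87869508-87869757 on the minus strand, are 79.6% G and C, and hold 1 CACGTG (capitals).
SLC7A5: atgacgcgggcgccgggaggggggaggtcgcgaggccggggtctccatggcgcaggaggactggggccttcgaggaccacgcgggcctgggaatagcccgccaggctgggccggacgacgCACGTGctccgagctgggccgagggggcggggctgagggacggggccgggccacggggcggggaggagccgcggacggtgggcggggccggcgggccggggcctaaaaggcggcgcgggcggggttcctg
Within these windows SLC7A5 thus holds the E-box and no TGATGNAA match, SLC3A2 and SLC7A1 the reverse, and SLC1A5 both, in windows of different starts. Members with either motif moved by different amounts, as given below, and a match of letters is no measure of binding.

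Most of the 10 transporters were lower with SGI-7079. In MV411, 7 of the 10 fell, 0 rose and 3 did not pass the test (adjusted p under 0.05, edgeR's quasi-likelihood test with Benjamini-Hochberg adjustment over all genes tested). The number that rose in MV411 was also 0 at an unadjusted p under 0.05 and 0 by DESeq2, and 1 (SLC36A1) by limma on FPKM. In MOLM13, 8 fell, 1 rose and 1 did not pass. Of all genes tested, 24.3% fell in MV411 and 23.6% in MOLM13, while 27.2% and 23.2% rose. The median log2 fold change of the members was -0.59 in MV411 and -0.83 in MOLM13, against 0.114 and 0.054 over all genes tested. As the members were chosen with earlier results of these data known, these shares and medians are only a description. A log2 fold change beyond 1, the size the study itself required, was passed downward by SLC7A5 and SLC7A1 in MV411 and by SLC7A5, SLC1A5 and SLC38A1 in MOLM13, beside 6.08% and 3.44% of all genes. Some members lay close to that size. Over the alternative settings and with each library left out, SLC1A5 in MV411 ran from -1.04 to -0.82. In MOLM13, SLC7A1 ran from -0.98 to -0.84 and SLC38A1 from -1.21 to -0.99. In a bulk sample, fewer cells of a type and less RNA per cell cannot be told apart.

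**Figure D1:**
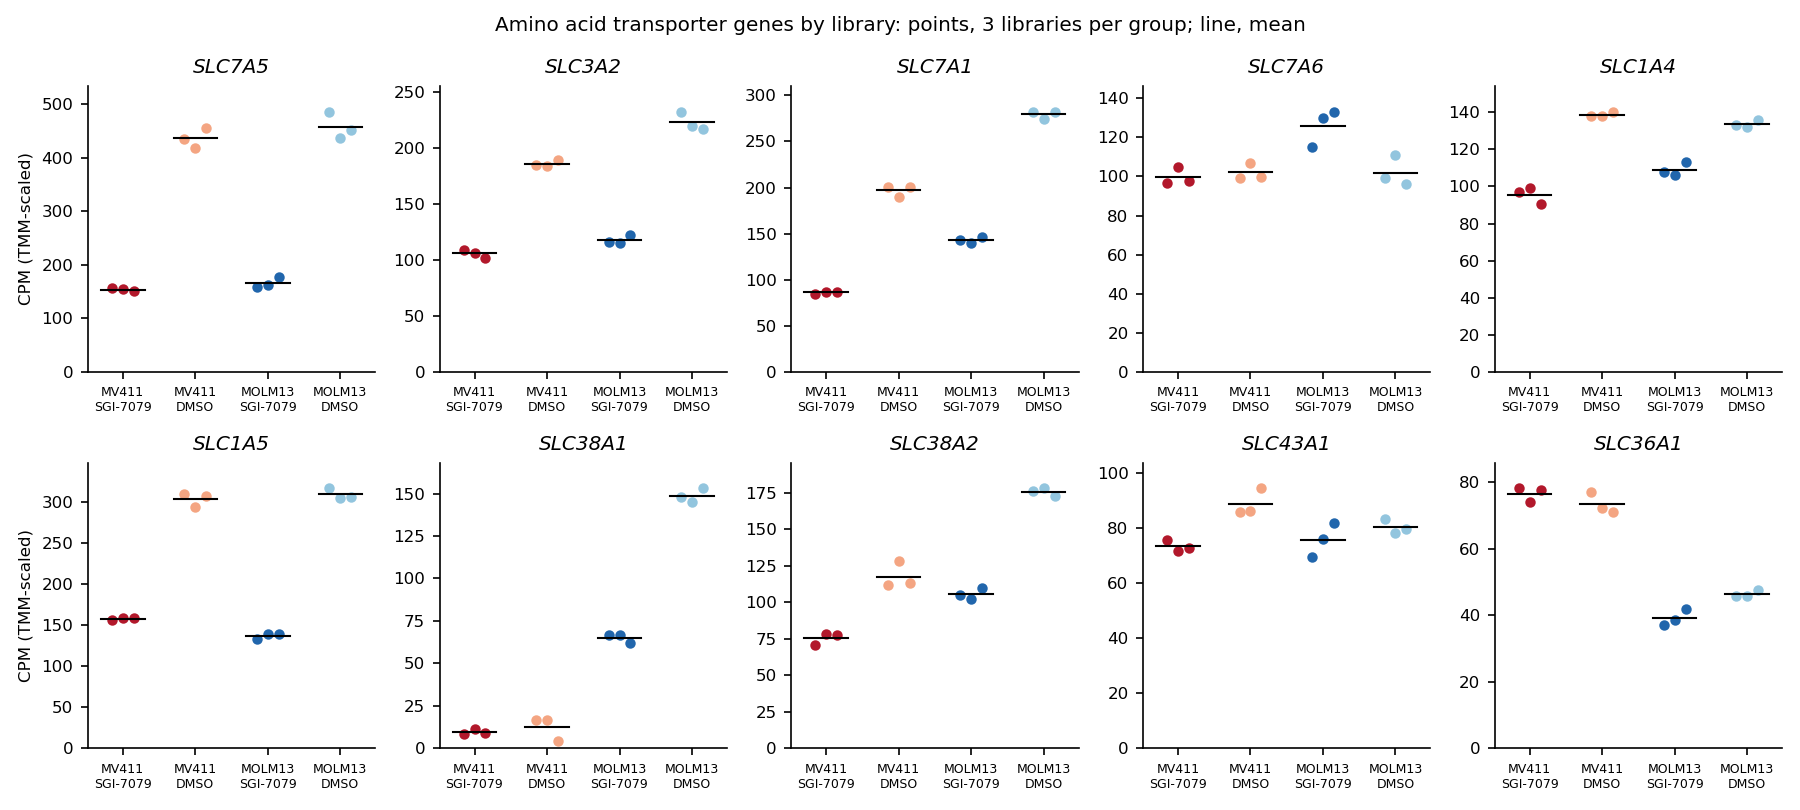
CPM (linear axis from 0) of each transporter gene in the 12 libraries, by group. Points are libraries and black lines are group means; SLC7A5 lies at 151 to 177 CPM in all SGI-7079 libraries and at 419 to 486 CPM in all DMSO libraries.

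The heavy chain and its light chains did not move as one. SLC7A5, which carries large neutral amino acids such as leucine and tryptophan, had 156, 154 and 151 CPM in MV411 with SGI-7079, against 436, 419 and 456 CPM with DMSO. In MOLM13 it had 159, 162 and 177 CPM with SGI-7079, against 486, 437 and 453 CPM with DMSO. Every treated library was far below every control library, and the levels of the lines were close. SLC7A5 fell by 1.51 ± 0.05 on the log2 scale in MV411 (SE, n = 3 each, adjusted p = 1.49e-11 by edgeR's quasi-likelihood test) and by 1.46 ± 0.05 in MOLM13 (adjusted p = 5.14e-11). The difference between these effects, -0.04 ± 0.07 (MV411 minus MOLM13), did not pass the test (adjusted p = 0.756). The gene lies on the minus strand at chr16:87830023-87869507 (hg38). Its pseudogenes SLC7A5P1 and SLC7A5P2, which could share reads with it, had 2 to 40 counts per library.

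SLC3A2, the heavy chain, had 109, 106 and 102 CPM in MV411 with SGI-7079, against 185, 184 and 189 CPM with DMSO. The MOLM13 values were 116, 115 and 122 CPM with SGI-7079, against 232, 219.9 and 217 CPM with DMSO. The groups did not overlap in either line, but the drop was smaller than that of SLC7A5. SLC3A2 (chr11:62856004-62888880, plus strand) fell by 0.82 ± 0.04 in MV411 (adjusted p = 3.30e-10) and by 0.92 ± 0.04 in MOLM13 (adjusted p = 2.49e-10). There were 1.46 ± 0.0211 SLC7A5 counts per SLC3A2 count in MV411 with SGI-7079 and 2.35 ± 0.0668 with DMSO (SD, n = 3 each). In MOLM13 the ratio was 1.41 ± 0.0391 with SGI-7079 and 2.06 ± 0.0614 with DMSO. The treated ratios were below all control ratios in both lines. Each comparison gave a 2-sided exact permutation p of 0.1, the smallest that 3 against 3 libraries can reach, and 0.1 after adjustment over the 8 comparisons of this kind, whose ratios were chosen after values were seen.

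SLC7A6, a second SLC3A2 partner that releases arginine in exchange for glutamine, did not fall with SLC7A5. It had 96.7, 105 and 97.8 CPM in MV411 with SGI-7079, against 99.4, 107 and 99.7 CPM with DMSO. In MOLM13 it had 115, 130.1 and 133 CPM with SGI-7079, against 99.0, 111 and 96.0 CPM with DMSO. The groups overlapped in MV411 and were separate in MOLM13. Its log2 fold change was -0.03 ± 0.06 in MV411 (adjusted p = 0.69), and it rose by 0.31 ± 0.06 in MOLM13 (adjusted p = 0.00102). The count of SLC7A6 per SLC7A5 count was 0.648 ± 0.0291 in MV411 with SGI-7079 against 0.234 ± 0.019 with DMSO, and 0.758 ± 0.0407 in MOLM13 with SGI-7079 against 0.223 ± 0.027 with DMSO.

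The values of SLC7A6 are uncertain because SLC7A6OS, on the opposite strand, shares 3372 bases with its exons, 44.4% of their length. None of the sources used here says whether strand was used in the counting. In 4 of 4 groups the library with the most SLC7A6 had the least SLC7A6OS. The summed CPM of both genes was 152, 158 and 157 in MOLM13 with SGI-7079 against 142, 141 and 139 with DMSO, with less spread than SLC7A6 alone. With the counts of the 2 genes added together, an alternative chosen after seeing the data, the rise in MOLM13 was 0.15 ± 0.03 (adjusted p = 9.55e-04) and the change in MV411 was -0.02 ± 0.03 (adjusted p = 0.605).

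**Figure D2:**
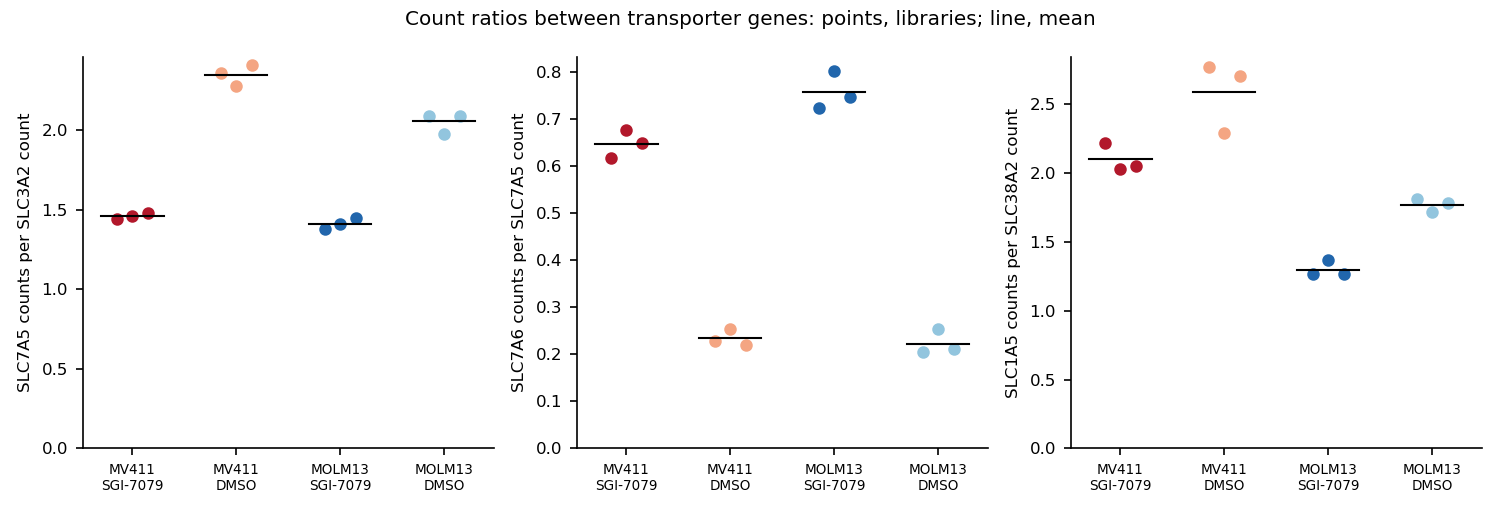
The 3 ratios of counts between transporter genes, by group, on linear axes from 0. Points are libraries and black lines are group means; SLC7A5 counts per SLC3A2 count lie at 1.38 to 1.48 in all SGI-7079 libraries and at 1.98 to 2.41 in all DMSO libraries.

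Among carriers that need no heavy chain, the arginine and lysine importer SLC7A1 fell in both lines. It had 84.9, 87.1 and 86.7 CPM in MV411 with SGI-7079, against 201, 189.8 and 201 CPM with DMSO. The MOLM13 libraries had 143, 139.6 and 146 CPM with SGI-7079, against 282, 274 and 282 CPM with DMSO. The treated libraries were below the controls without overlap, and MV411 was below MOLM13 under either treatment. SLC7A1 (chr13:29509414-29595688, minus strand) fell by 1.19 ± 0.03 in MV411 (adjusted p = 2.46e-12) and by 0.97 ± 0.03 in MOLM13 (adjusted p = 4.13e-11). The effect was more negative in MV411 by 0.23, with a difference of -0.23 ± 0.04 (adjusted p = 0.0024).

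SLC43A1 carries branched-chain amino acids by facilitated diffusion. It had 75.7, 71.7 and 72.9 CPM in MV411 with SGI-7079, against 86.0, 86.1 and 94.4 CPM with DMSO. MOLM13 had 69.5, 76.0 and 81.8 CPM with SGI-7079, against 83.2, 78.4 and 79.5 CPM with DMSO. Only in MV411 were the groups separate. SLC43A1 fell by 0.27 ± 0.06 in MV411 (adjusted p = 9.11e-04), and its log2 fold change in MOLM13 was -0.08 ± 0.06 (adjusted p = 0.247). The difference of the effects, -0.19 ± 0.08, did not pass (adjusted p = 0.117), but it lay between -0.33 and -0.26 and passed when any one of 7 libraries was left out (MV411 SGI-7079 replicate 1, MV411 DMSO replicates 1 and 2, MOLM13 SGI-7079 replicates 1 and 2, and MOLM13 DMSO replicates 1 and 3).

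Of the sodium-coupled carriers of glutamine and small neutral amino acids, SLC1A5, SLC1A4 and SLC38A2 fell in both lines and SLC38A1 in MOLM13. SLC1A5, a glutamine exchanger, had 157, 159 and 159 CPM in MV411 with SGI-7079, against 310.4, 294 and 308 CPM with DMSO. In MOLM13 it had 133, 139.6 and 139.7 CPM with SGI-7079, against 317, 305 and 307 CPM with DMSO. The control levels of the lines overlapped, and after treatment MOLM13 lay below MV411. SLC1A5 fell by 0.94 ± 0.03 in MV411 (adjusted p = 1.81e-11) and by 1.17 ± 0.03 in MOLM13 (adjusted p = 1.00e-11). The difference between the effects was 0.23 ± 0.04 (adjusted p = 0.00207), but it was 0.13 and missed the threshold without any one of MV411 DMSO replicate 2, MOLM13 SGI-7079 replicate 1 and MOLM13 DMSO replicate 1 (adjusted p = 0.0519 to 0.0589). The deposited coordinates of SLC1A5, chr19:46774883-46787342, end before the GENCODE 44 gene, which runs to 46788594.

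Its relative SLC1A4, which carries alanine, serine, cysteine and threonine, moved less. It had 96.9, 99.0 and 90.3 CPM in MV411 with SGI-7079, against 138, 138 and 140.2 CPM with DMSO. The MOLM13 values were 108, 106 and 113 CPM with SGI-7079, against 133, 132 and 136 CPM with DMSO. The control levels were close in the lines, and the treated levels were lower in MV411. SLC1A4 fell by 0.54 ± 0.04 in MV411 (adjusted p = 2.69e-08) and by 0.29 ± 0.04 in MOLM13 (adjusted p = 1.63e-05). The effects differed by -0.25 ± 0.05 (adjusted p = 0.00396). In the fit of all 12 libraries, the 2 members of this family thus differed between the lines in opposite directions.

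SLC38A2, which brings in glutamine and alanine and is known to be induced by amino acid starvation, had 70.7, 78.1 and 77.5 CPM in MV411 with SGI-7079, against 112, 128 and 113 CPM with DMSO. In MOLM13 it had 105, 102 and 109.8 CPM with SGI-7079, against 176, 178 and 173 CPM with DMSO. Treated and control libraries were separate in both lines. It fell by 0.64 ± 0.05 in MV411 (adjusted p = 1.80e-07) and by 0.73 ± 0.05 in MOLM13 (adjusted p = 6.75e-08). SLC1A5 counts per SLC38A2 count were 2.1 ± 0.106 in MV411 with SGI-7079 against 2.59 ± 0.26 with DMSO, and 1.3 ± 0.0552 in MOLM13 with SGI-7079 against 1.77 ± 0.045 with DMSO.

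SLC38A1, its neighbour on chromosome 12 and another glutamine carrier, had the widest gap between the lines. It had 8.56, 11.1 and 8.97 CPM in MV411 with SGI-7079, against 16.4, 16.6 and 4.37 CPM with DMSO. The MOLM13 libraries had 66.5, 66.7 and 62.0 CPM with SGI-7079, against 148, 145 and 153 CPM with DMSO. MOLM13 was above MV411 in every library, and 1 MV411 control, replicate 3, was lower than all treated MV411 libraries. SLC38A1 (chr12:46183063-46270017, minus strand) fell by 1.19 ± 0.28 in MOLM13 (adjusted p = 0.00337). Its log2 fold change in MV411 was -0.38 ± 0.33 (adjusted p = 0.359), and the difference of the effects was 0.81 ± 0.43 (adjusted p = 0.229).

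The MV411 result for SLC38A1 turned on that 1 library, which was 3.78-fold below the mean of the other 2 controls (16.5 CPM). Without it, SLC38A1 fell by 0.79 ± 0.09 in MV411 (adjusted p = 8.12e-06) and by 1.19 ± 0.07 in MOLM13 (adjusted p = 3.20e-08), and the difference of the effects was 0.4 ± 0.11 (adjusted p = 0.0267). Over all genes the same library did not stand apart. Among genes of at least 1 CPM in MV411 with DMSO, 0.324% were more than 2-fold below both other replicates in it, within the 0.31% to 0.508% found over the 12 libraries.

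SLC36A1 moves small amino acids out of the lysosome together with protons. It had 78.1, 73.9 and 77.7 CPM in MV411 with SGI-7079, against 76.9, 72.2 and 71.1 CPM with DMSO. MOLM13 had 37.0, 38.5 and 42.0 CPM with SGI-7079, against 45.8, 45.9 and 47.5 CPM with DMSO. The MV411 groups overlapped, while the MOLM13 groups did not. Its log2 fold change in MV411 was 0.06 ± 0.05 (adjusted p = 0.327), and 0.16 with upper quartile scaling, where it passed the test (adjusted p = 0.017). It fell by 0.24 ± 0.05 in MOLM13 (adjusted p = 0.00115). The difference of 0.31 ± 0.07 (adjusted p = 0.00686) was 0.19 to 0.24 and missed the threshold without any one of 7 libraries (MV411 SGI-7079 replicate 1, MV411 DMSO replicate 2, MOLM13 SGI-7079 replicates 1 and 2, and MOLM13 DMSO replicates 1, 2 and 3).

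**Figure D3:**
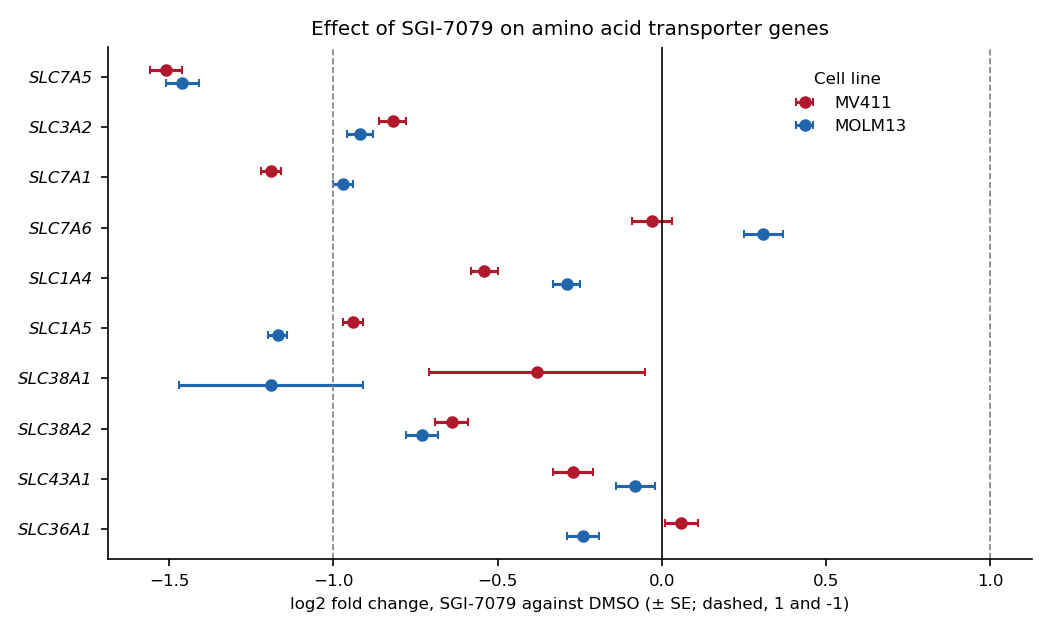
Log2 fold change of SGI-7079 over DMSO for each transporter gene in MV411 and MOLM13, with standard errors. Dashed lines mark a log2 fold change of 1 in either direction; SLC7A5 is at -1.51 in MV411 and -1.46 in MOLM13, and SLC7A6 is at -0.03 and 0.31.

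Set side by side, the effect in MV411 differed from that in MOLM13 for 5 of the 10 members, against 20.7% of all genes tested. The difference was positive for SLC1A5 and SLC36A1 (8.85% of all genes) and negative for SLC7A1, SLC1A4 and SLC7A6 (11.8%). For SLC7A6 it was -0.34 ± 0.09 (adjusted p = 0.0136), or -0.17 ± 0.04 with SLC7A6OS added (adjusted p = 0.0112). Differences for SLC3A2 (0.1 ± 0.05, adjusted p = 0.199) and SLC38A2 (0.09 ± 0.07, adjusted p = 0.473) did not pass. The summed level of the 10 members was 934, 944 and 923 CPM in MV411 with SGI-7079, against 1661, 1634 and 1677 CPM with DMSO. In MOLM13 the sum was 1053, 1075 and 1126 CPM with SGI-7079, against 2003, 1925 and 1944 CPM with DMSO. The sum was thus 1.78-fold lower with SGI-7079 in MV411 and 1.8-fold lower in MOLM13, with separate groups and an exact 2-sided permutation p of 0.1 in each line.

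With DMSO the lines differed in 6 of the 10 members. MV411 with DMSO was higher than MOLM13 with DMSO in 2 (27.7% of all genes) and lower in 4 (26.5%). SLC38A1 was lower in MV411 by 3.58 on the log2 scale (-3.58 ± 0.32, adjusted p = 3.91e-07), or 11.9-fold, and was the 1 member past a log2 difference of 1 (9.57% of all genes, downward). The gap was 3.17 without MV411 DMSO replicate 3 (-3.17 ± 0.09, adjusted p = 4.08e-11). SLC38A2 (-0.57 ± 0.05, adjusted p = 4.77e-07), SLC7A1 (-0.5 ± 0.03, adjusted p = 9.75e-09) and SLC3A2 (-0.26 ± 0.04, adjusted p = 3.04e-05) were also lower in MV411. SLC36A1 was higher in MV411 by 0.66 ± 0.05 (adjusted p = 6.73e-08). SLC43A1 was higher by 0.14 ± 0.06 (adjusted p = 0.0425) and missed the threshold when any one of 5 libraries was left out (0.1 to 0.15, adjusted p = 0.0507 to 0.181), those being MV411 DMSO replicate 3, MV411 SGI-7079 replicates 2 and 3, and MOLM13 DMSO replicates 2 and 3. SLC7A5 (-0.07 ± 0.05, adjusted p = 0.241), SLC1A5 (-0.03 ± 0.03, adjusted p = 0.474), SLC1A4 (0.05 ± 0.04, adjusted p = 0.248) and SLC7A6 (0.0 ± 0.06, adjusted p = 0.999) did not pass. SLC1A4 did pass with upper quartile scaling (0.1, adjusted p = 0.0341) and with limma on log2(FPKM + 1) and log2(FPKM + 0.1) (0.13 and 0.14, adjusted p = 0.00457 and 0.00505).

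Levels of different genes were compared in FPKM, fragments per kilobase of exon, scaled to library depth. SLC7A5 and SLC1A5 led in both lines with DMSO, with overlapping ranges. SLC7A5 averaged 84.8 ± 2.85 FPKM in MV411 with DMSO and 83.8 ± 3.86 FPKM in MOLM13 with DMSO, and SLC1A5 83.3 ± 2.12 and 80.0 ± 0.985 FPKM (SD, n = 3 each). With SGI-7079, SLC1A5 stood above SLC7A5 without overlap, at 46.7 ± 0.75 against 32.2 ± 0.431 FPKM in MV411 and 37.7 ± 1.08 against 32.3 ± 1.73 FPKM in MOLM13. SLC43A1 came next in both treated groups, at 20.7 ± 0.374 FPKM in MV411 and 19.9 ± 1.58 FPKM in MOLM13. SLC7A5 was above 95.1% of the tested genes in MV411 with SGI-7079 and above 98.4% with DMSO, and above 95.3% and 98.4% in MOLM13.

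Below these, several neighbours overlapped. In MV411 with SGI-7079, SLC1A4 (13.7 FPKM) overlapped SLC7A6 (13.1 FPKM), and SLC38A2 (11.5 FPKM) and SLC7A1 (11.2 FPKM) overlapped each other, as SLC7A1 did SLC36A1 (10.9 FPKM). In MV411 with DMSO the order after the first 2 was SLC3A2 (26.9 FPKM), SLC7A1 (23.7 FPKM) overlapping SLC43A1 (23.3 FPKM), SLC1A4 (18.5 FPKM), SLC38A2 (16.7 FPKM), SLC7A6 (12.4 FPKM) and SLC36A1 (9.73 FPKM). SLC38A1 was the lowest member in MV411, at 0.948 ± 0.145 FPKM with SGI-7079 and 1.15 ± 0.655 FPKM with DMSO. In MOLM13 it ranked above SLC36A1, at 6.01 ± 0.278 FPKM with SGI-7079 and 12.9 ± 0.329 FPKM with DMSO. SLC36A1 was the lowest member there, at 5.19 ± 0.322 FPKM with SGI-7079 and 5.79 ± 0.145 FPKM with DMSO.

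In MOLM13 with SGI-7079, SLC7A1 (17.2 FPKM) overlapped SLC3A2 (17.0 FPKM), and SLC7A6 (15.4 FPKM), SLC38A2 (15.0 FPKM) and SLC1A4 (14.5 FPKM) overlapped in turn. With DMSO the MOLM13 order after the first 2 was SLC7A1 (31.6 FPKM) overlapping SLC3A2 (30.3 FPKM), SLC38A2 (23.4 FPKM), SLC43A1 (19.8 FPKM), SLC1A4 (16.8 FPKM), then SLC38A1 overlapping SLC7A6 (11.7 FPKM). The ranks depend on the length each gene is divided by, as that of SLC3A2 shows. The deposited FPKM tracked the union of all annotated exons, 6392 bases for SLC3A2, which is 3.39 times its main (MANE) transcript of 1885 bases. Per kilobase of the MANE transcript, SLC3A2 averaged 55.9 ± 1.82 in MV411 with SGI-7079 and 98.7 ± 1.4 with DMSO, and 62.4 ± 2.03 in MOLM13 with SGI-7079 and 118 ± 4.31 with DMSO. On that scale it ranked first in 3 of the 4 groups, with a range that overlapped that of SLC1A5 (54.9 ± 0.313) in MV411 with SGI-7079, and second to SLC1A5 (105 ± 3.17) in MV411 with DMSO. Unlike in FPKM, SLC1A5 also stood above SLC7A5 (95.9 ± 4.01) without overlap in MV411 with DMSO. SLC7A1 in MOLM13 with SGI-7079 was at rank 4 in FPKM and at rank 8 on the MANE scale.

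**Figure D4:**
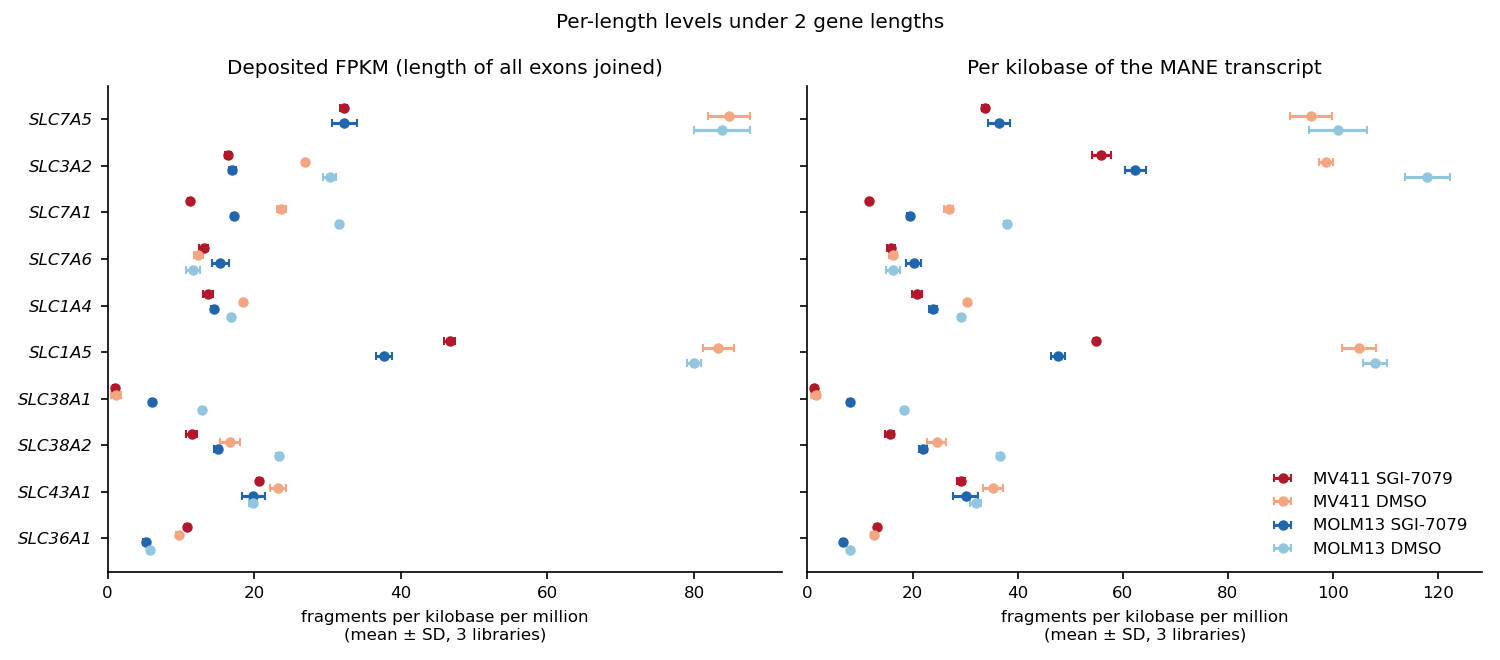
Mean level of each transporter gene in each group with its SD (3 libraries), as deposited FPKM on the left and per kilobase of the MANE transcript on the right, on linear axes from 0. In FPKM, SLC7A5 and SLC1A5 lie at 80.0 to 84.8 FPKM in the DMSO groups, and SLC38A1 is the lowest in MV411, at 0.948 FPKM with SGI-7079 and 1.15 FPKM with DMSO.

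The genes whose pattern over the 12 libraries was most like that of SLC7A5 were looked for among 10322 protein-coding genes above 5 CPM, by the root mean square difference of log2 CPM centred on each gene's mean. They were KIF22 (0.098), WEE1 (0.104), PTTG1 (0.113), HAT1 (0.125) and CENPS (0.13). KIF22 is a kinesin of the spindle, WEE1 a kinase that holds back mitosis, PTTG1 the securin, HAT1 a histone acetyltransferase and CENPS a centromere protein. Of the other members, SLC1A5 was nearest (0.244, with 97 genes nearer), then SLC3A2 (0.316, 259 genes nearer) and SLC7A1 (0.338, 319 genes nearer), and SLC38A1 was the furthest (1.742). The distances are a description over libraries that share their treatment groups.

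Of 13 other amino acid transporters of the plasma membrane tested among 33 listed, 3 rose and 5 fell in MV411, and 4 rose and 6 fell in MOLM13. As shares these are 23.1% and 38.5% in MV411, beside 27.2% and 24.3% of all genes tested, and 30.8% and 46.2% in MOLM13, beside 23.2% and 23.6%. These counts include genes of very low level. SLC3A1 rose in MOLM13 at 0.337 CPM with SGI-7079 against 0.0486 CPM with DMSO, with overlapping groups (edgeR adjusted p = 0.03). SLC6A9 fell in both lines, at 0.156 against 1.05 CPM in MV411 and 0.436 against 4.03 CPM in MOLM13. SLC43A2, a relative of SLC43A1 that also carries branched-chain amino acids, had 59.5 ± 2.07 CPM in MV411 with SGI-7079 against 25.4 ± 1.33 with DMSO (log2 fold change 1.23 ± 0.06), and 35.3 ± 0.95 in MOLM13 with SGI-7079 against 13 ± 0.78 with DMSO (1.44 ± 0.06). SLC38A5, a relative of SLC38A1 and SLC38A2, had 8.06 ± 0.895 CPM in MV411 with SGI-7079 against 52.7 ± 1.67 with DMSO (-2.71 ± 0.07), and 43.1 ± 0.656 in MOLM13 with SGI-7079 against 89.2 ± 4.53 with DMSO (-1.05 ± 0.06). SLC7A11 is the cystine and glutamate exchanger and a further light chain of SLC3A2. It rose by 2.15 ± 0.12 in MV411, to 59.0 ± 4.7 CPM against 13.3 ± 2.14 CPM with DMSO (adjusted p = 4.00e-09), and fell by 1.52 ± 0.12 in MOLM13, to 13 ± 0.905 CPM against 37.4 ± 4.84 CPM with DMSO (adjusted p = 1.93e-07). SLC7A5, SLC7A6 and SLC7A11 therefore each had a different pattern over the 2 lines. SLC7A7, a relative of SLC7A6, rose in both, by 1.33 ± 0.16 in MV411 (adjusted p = 6.20e-06) and by 0.52 ± 0.15 in MOLM13 (adjusted p = 0.0119). Its treated means were low, at 6.6 CPM in MV411 and 8.45 CPM in MOLM13. SLC1A3, a glutamate importer, rose in MOLM13 (0.83 ± 0.07) and was at 0.07 ± 0.07 in MV411 (adjusted p = 0.407).

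Transporters of lysosomes and the Golgi were listed apart from the lysosomal member SLC36A1, which fell in MOLM13 as given above. Its relative SLC36A4 was counted in the plasma membrane list. SLC36A4 fell by 0.73 ± 0.08 in MV411 (adjusted p = 4.75e-06) and by 0.71 ± 0.08 in MOLM13 (adjusted p = 6.99e-06). The counts below thus hold only for the list as drawn. Of 8 tested, 4 rose and 0 fell in MV411, and 7 rose and 0 fell in MOLM13. The shares that rose were 50.0% and 87.5%, beside 27.2% and 23.2% of all genes. The rises of SLC38A9 (0.22 ± 0.08, adjusted p = 0.048) and SLC38A10 (0.07 ± 0.03, adjusted p = 0.036) in MOLM13 were close to the threshold. In both lines the number of the 8 that fell was also 0 at an unadjusted edgeR p under 0.05, by DESeq2 and by limma on FPKM. The cationic amino acid exporter SLC66A1 rose by 0.39 ± 0.05 in MV411 and 0.56 ± 0.05 in MOLM13. The histidine and peptide transporters SLC15A3 (1.29 ± 0.11 in MV411 and 0.75 ± 0.11 in MOLM13) and SLC15A4 (0.57 ± 0.05 and 0.4 ± 0.05) also rose. SLC38A7, a lysosomal glutamine carrier, rose in MOLM13 (0.22 ± 0.08, adjusted p = 0.042) and was at -0.1 ± 0.08 in MV411 (adjusted p = 0.356). Its rise in MOLM13 missed the threshold without any one of 6 libraries (MV411 SGI-7079 replicate 2, MOLM13 SGI-7079 replicates 2 and 3, and MOLM13 DMSO replicates 1, 2 and 3), at 0.2 to 0.25 (adjusted p = 0.0513 to 0.109). The sum of the markers listed as monocytic myeloid, which includes FLT3, was higher in the treated libraries of both lines. Single markers went either way, and their part in these values was not tested.

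Of 11 mitochondrial amino acid carriers tested, 6 fell and 1 rose in MV411, and 5 fell and 2 rose in MOLM13. The shares that fell were 54.5% in MV411 and 45.5% in MOLM13, beside 24.3% and 23.6% of all genes, and those that rose 9.09% and 18.2%, beside 27.2% and 23.2%. SFXN1, the mitochondrial serine carrier, fell by 1.48 ± 0.04 in MV411 and by 1.05 ± 0.04 in MOLM13. SLC25A22, a glutamate carrier, fell by 0.99 ± 0.06 in MV411 and by 0.75 ± 0.06 in MOLM13, and SLC25A29, which carries basic amino acids, rose by 0.98 ± 0.05 and 0.74 ± 0.05. SFXN2 fell in MV411 (-1.48 ± 0.13) and was at -0.25 ± 0.13 in MOLM13 (adjusted p = 0.137). SFXN3 fell in MV411 (-0.36 ± 0.03) and rose slightly in MOLM13 (0.09 ± 0.03, adjusted p = 0.0408). That rise missed the threshold without any one of 5 libraries (MV411 SGI-7079 replicate 2, MOLM13 SGI-7079 replicates 2 and 3, and MOLM13 DMSO replicates 1 and 2), with adjusted p = 0.0551 to 0.0868.

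Of 38 amino acid sensors and regulators of mTORC1, 12 rose and 14 fell in MV411 (31.6% and 36.8%, beside 27.2% and 24.3% of all genes), and 14 rose and 12 fell in MOLM13 (36.8% and 31.6%, beside 23.2% and 23.6%). DEPTOR, which binds and restrains mTOR, had 22.9 ± 0.0393 CPM in MV411 with SGI-7079 against 7.23 ± 1.01 with DMSO, and 5.02 ± 0.384 in MOLM13 with SGI-7079 against 1.54 ± 0.329 with DMSO. It rose by 1.66 ± 0.15 in MV411 and 1.71 ± 0.16 in MOLM13. MTOR itself fell by 0.5 ± 0.04 in MV411 and by 0.4 ± 0.04 in MOLM13. Within GATOR2, SEH1L fell (-0.98 ± 0.04 in MV411 and -0.62 ± 0.04 in MOLM13) and WDR59 rose (0.46 ± 0.06 and 0.7 ± 0.06). The leucine sensor relative SESN1 fell in MV411 (-0.47 ± 0.04) and rose in MOLM13 (0.37 ± 0.04). DEPDC5 of GATOR1 fell in MOLM13 (-0.29 ± 0.04) and was at 0.08 ± 0.04 in MV411 (adjusted p = 0.146). The MV411 call for DEPDC5 depended on the setting. It rose with upper quartile scaling (0.17, adjusted p = 0.00317) and limma on FPKM (0.14 and 0.18, adjusted p = 0.0227 and 0.0303).

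Of 18 regulators of the amino acid response, 9 fell and 3 rose in MV411, and 12 fell and 2 rose in MOLM13. The shares that fell were 50.0% in MV411 and 66.7% in MOLM13, beside 24.3% and 23.6% of all genes, and those that rose 16.7% and 11.1%, beside 27.2% and 23.2%. ATF4 had 229 ± 7.81 CPM in MV411 with SGI-7079 against 227 ± 12.3 with DMSO, where its change of 0.01 ± 0.04 did not pass (adjusted p = 0.855). That call depended on the setting, since it passed downward without MV411 DMSO replicate 2 (-0.1, adjusted p = 0.0292) and upward with upper quartile scaling (0.11, adjusted p = 0.0455) and limma on FPKM (0.12, adjusted p = 0.0106 and 0.0109). In MOLM13 it had 283 ± 8.31 CPM with SGI-7079 against 495 ± 6.29 with DMSO, and fell by 0.8 ± 0.04 (adjusted p = 2.09e-09). ATF4 is also controlled in its translation, which RNA levels do not show. EIF2S1, the subunit of eIF2 that stress kinases phosphorylate, fell by 1.08 ± 0.04 in MV411 and by 0.77 ± 0.04 in MOLM13, and EIF2B3, a subunit of its exchange factor, by 1.09 ± 0.07 and by 0.79 ± 0.07. TRIB3, an ATF4 target that feeds back on it, fell by 1.76 ± 0.1 in MV411 and by 1.11 ± 0.1 in MOLM13, and ATF5 rose in MV411 (0.51 ± 0.07) and was at -0.11 ± 0.07 in MOLM13 (adjusted p = 0.22).

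Of 28 enzymes of glutamine, asparagine, branched-chain and arginine metabolism, 19 fell and 3 rose in MV411, and 18 fell and 2 rose in MOLM13. The shares that fell were 67.9% and 64.3% and those that rose 10.7% and 7.14%, in MV411 and MOLM13 in turn, beside 24.3% and 23.6% of all genes that fell and 27.2% and 23.2% that rose. The median log2 fold change of this list was -0.55 in MV411 and -0.43 in MOLM13. GPT2, a mitochondrial alanine transaminase, had 19.7 ± 1.11 CPM in MV411 with SGI-7079 against 84.1 ± 6.69 with DMSO, and 32.8 ± 2.11 in MOLM13 with SGI-7079 against 101 ± 2.19 with DMSO. It fell by 2.09 ± 0.07 in MV411 and by 1.63 ± 0.06 in MOLM13. The asparagine synthetase ASNS fell by 0.67 ± 0.08 in MV411 and by 1.85 ± 0.08 in MOLM13. The proline enzymes PYCR3 (-2.08 ± 0.08 in MV411 and -0.41 ± 0.08 in MOLM13) and ALDH18A1 (-1.06 ± 0.05 and -0.57 ± 0.04) fell more in MV411. ASS1, which makes argininosuccinate for arginine synthesis, fell by 0.69 ± 0.04 in MV411 and by 1.13 ± 0.04 in MOLM13, and ODC1, the first enzyme of polyamine synthesis, by 0.44 ± 0.03 and by 0.87 ± 0.03.

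**Figure D5:**
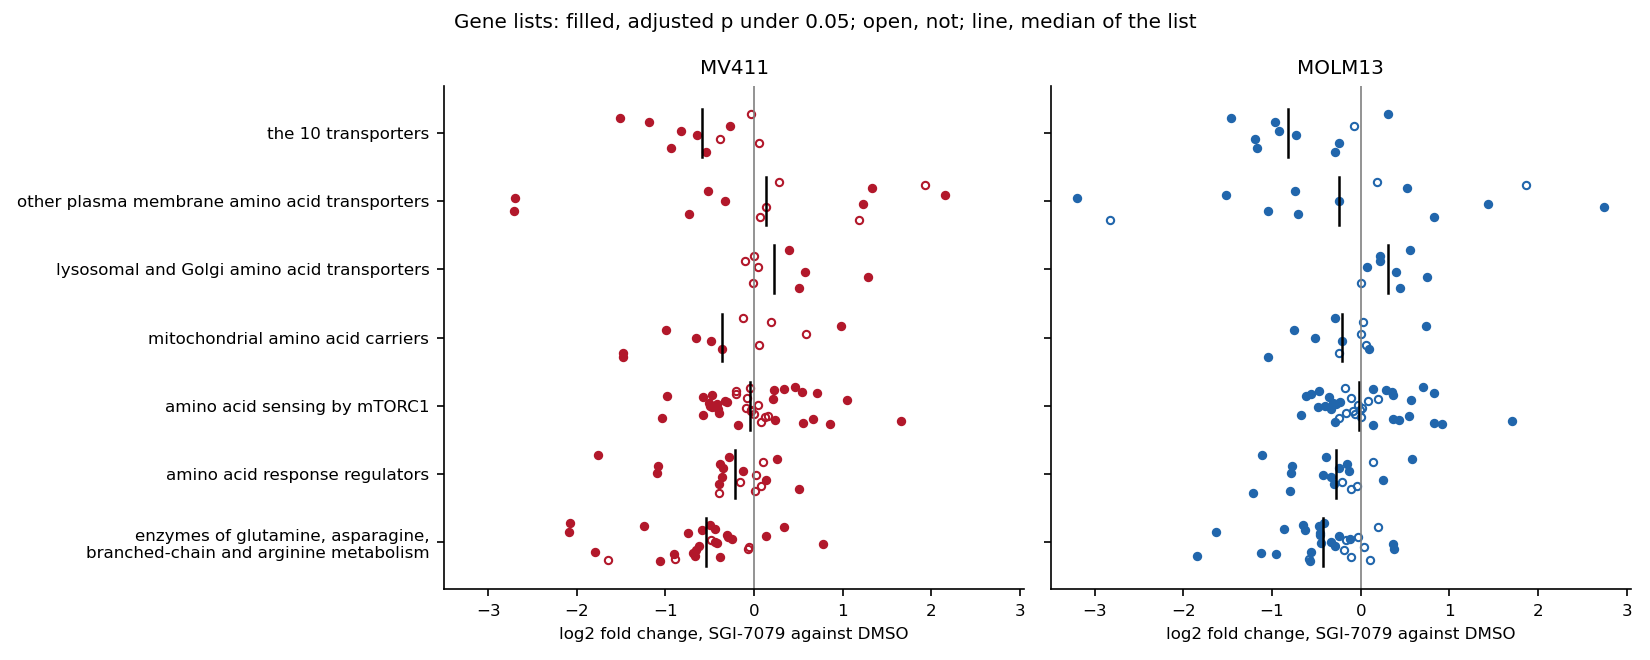
Log2 fold change of SGI-7079 over DMSO for the genes of each list tested, in MV411 and MOLM13. Each point is a gene, filled where its adjusted p was under 0.05, and the black line is the median of the list (-0.59 in MV411 and -0.83 in MOLM13 for the 10 transporters).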

How the data were processed

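RNA was measured in 12 libraries, 3 in each of 4 groups, which were taken from the sample labels. Per the labels' protocols, RNA was selected on oligo(dT) and made into strand-marked libraries with dUTP, sequenced in pairs. Per the submitters' processing notes, the tools were HISAT2 2.2.1 and StringTie 2.1.6 with build hg38, cutadapt 1.9, edgeR and DESeq2, and the series' design text names featureCounts. Strand use in counting and the handling of reads that match several genes are not given in the sources used here. Raw gene counts and FPKM, both made by the authors, are the values in the deposited table, per the file headers.

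Counts were tested here with edgeR 4.0.16 in R 4.3.3 (quasi-likelihood test, TMM scaling, filterByExpr at a minimum count of 10, 1 mean per group over all 12 libraries). Benjamini-Hochberg adjustment covered all 21438 genes tested. A gene rose or fell at an adjusted p under 0.05, and was called past a size of 1 in log2. A log2 fold change over the root of its F statistic gave the standard error. CPM values are counts per 1000000 of the TMM-scaled library size. Ratios of members were tested with exact permutation tests over samples. Positions and exon lengths came from GENCODE 44. Depth was 52352252 to 61862017 counts per library.

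The members and lists were chosen with earlier results of these data known. All 10 members were named, and SLC3A1, SLC6A9, SLC7A7, SLC36A4, SLC38A9 and SLC38A10 outside the rule below. In each other list, the 3 genes with the smallest adjusted p in each line and for the difference were named, and the 5 genes nearest to SLC7A5. One gene that this rule picks among the mTORC1 sensors is counted in its list but not reported here by name. Alternatives were other scalings, no filter, DESeq2 1.42.0, a replicate block, limma 3.58.1 on log2(FPKM + 1) and log2(FPKM + 0.1), each library left out, each line alone, and SLC7A6 with SLC7A6OS counts added. The scripts were tested on simulated counts.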

Additional observations from a re-analysis of the deposited data

Results flagged for a closer look

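The effect of SGI-7079 differed between MV411 and MOLM13 for the genes below, by the edgeR test of the difference (MV411 minus MOLM13, log2, adjusted p under 0.05). Genes not given here need not have equal effects in the lines. With each library left out in turn, the difference passed in 9 of 12 fits for SLC25A22, SLC66A1 and WDR59. It passed in 6 of 12 for SLC38A7, SLC43A2 and MTOR. No formal outlier test was made in groups of 3 libraries. The causes were not tested.

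Of the 10 transporters, SLC36A1 (0.31) and SLC1A5 (0.23) had positive differences, each lost without certain single libraries as given above, and SLC7A6 (-0.34), SLC1A4 (-0.25) and SLC7A1 (-0.23) negative ones. Among other transporters of membranes, the difference was 3.67 for SLC7A11, -1.66 for SLC38A5, -0.76 for SLC1A3 and 0.53 for SLC15A3. SLC7A11 rose in MV411 and fell in MOLM13. The difference for SLC15A3 missed the threshold when any one of 7 libraries was left out (0.37 to 0.49, adjusted p = 0.0531 to 0.1) and with no filter (0.48, adjusted p = 0.0625). Among mitochondrial carriers it was -1.24 for SFXN2, -0.45 for SFXN3, -0.43 for SFXN1 and 0.24 for SLC25A29. That for SLC25A29 missed the threshold in 11 of the 12 fits that left out a library (0.12 to 0.26, adjusted p = 0.0567 to 0.298) and with no filter (0.19, adjusted p = 0.159).

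Among sensors of amino acids it was -0.84 for SESN1, -0.36 for SEH1L and 0.37 for DEPDC5. Among regulators of the amino acid response it was 0.82 for ATF4, 0.62 for ATF5, -0.64 for TRIB3, -0.31 for EIF2S1 and -0.3 for EIF2B3. That for EIF2B3 missed the threshold without MV411 SGI-7079 replicate 3 (-0.31, adjusted p = 0.0551) or MV411 DMSO replicate 3 (-0.28, adjusted p = 0.0794), and on log2(FPKM + 1) (-0.21, adjusted p = 0.0567). On that last scale TRIB3 also missed it (-0.13, adjusted p = 0.37). Among enzymes it was -1.67 for PYCR3, 1.19 for ASNS, -0.5 for ALDH18A1, -0.47 for GPT2, 0.44 for ASS1 and 0.43 for ODC1. The positive difference of ASNS marks a smaller fall in MV411.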

How the results depend on the processing

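The counts of members that fell were 7 in MV411 and 8 in MOLM13 under every other setting, and 7 to 8 and 8 with each library left out. The median log2 fold change of the members (-0.59 in MV411, -0.83 in MOLM13) was -0.5 and -0.73 with upper quartile scaling, -0.45 and -0.71 with limma on log2(FPKM + 1), and -0.48 and -0.74 on log2(FPKM + 0.1). In MV411 it was also -0.64 with no filter and -0.66 with the MV411 libraries alone, and -0.73 to -0.58 with each library left out. Upper quartile scaling moved the median of all genes to 0.21 in MV411, against 0.114, and to 0.157 in MOLM13, against 0.054, and its split of all genes was 6832 higher and 4500 lower in MV411 and 6017 higher and 3976 lower in MOLM13. With each library left out, the median of all genes was 0.03 to 0.122 in MV411 and -0.103 to -0.006, against -0.014, for the difference between the lines' effects.

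In MV411, 1 member (SLC36A1) rose with upper quartile scaling and both limma settings, against 0 in the edgeR test. The count of members with a more positive effect in MV411 was 4 on log2(FPKM + 1), against 2, and 0 to 3 with each library left out. The count of members higher in MV411 than MOLM13 with DMSO was 1 with no filter and 1 with the replicate block, against 2, where SLC43A1 missed the threshold (adjusted p = 0.0858 and 0.0682), and 1 to 2 with each library left out. It ranged up to 3 over the other settings, since SLC1A4 passed with upper quartile scaling and both limma settings. Same-numbered samples correlated by 0.003 to 0.041 in their deviations from the group means over all genes tested. Little pairing by number was thus seen over these genes as a whole. Pairing in a smaller set of genes was not tested. The block moved no other member across the adjusted p threshold. Among the list genes it took the threshold from SLC38A7 in MOLM13 (adjusted p = 0.0781) and the EIF2B3 difference (adjusted p = 0.0772), and SFXN2 in MOLM13 passed with it (adjusted p = 0.025). Several small values crossed 0 without passing the test in either fit, such as SLC43A1 in MOLM13 and SLC7A6 in MV411, and 2 crossed 0 and passed. ATF4 in MV411 was -0.1 without MV411 DMSO replicate 2 (adjusted p = 0.0292), against 0.01, and it rose with upper quartile scaling (0.11, adjusted p = 0.0455) and both limma settings (0.12, adjusted p = 0.0106 and 0.0109). The difference for DEPTOR was 0.58 on log2(FPKM + 1) (adjusted p = 0.00308), against -0.04. Where no cause is given, the cause was not tested. By adjusted p alone, not size, 330 member results kept their outcome under other settings, 8 newly passed and 2 no longer did. With each library left out, 456 kept it, 9 newly passed and 15 no longer did. The number of members past a log2 fold change of 1 downward was 2 to 3 in each line over these fits.

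The SLC38A1 result in MV411 is limited by 1 low library, and its fewest counts, 266, are the smallest of any member. Whether the counting used strand limits SLC7A6, and the labels do not say whether replicates were separate cultures.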
